A study of Mus musculus with 64 samples.

Results

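The colon of germ-free (GF) mice was compared after vancomycin and after PBS at ZT17, a time in the dark phase when mice are active. The comparison rests on 8 of the series' 64 RNA sequencing libraries, 4 from vancomycin-treated and 4 from PBS-treated mice, chosen by their labelled microbial status, treatment and time. Both groups were wild-type Swiss Webster mice, 8 to 12 weeks old, fed standard chow under 12 h of light and 12 h of dark. All had left their isolators for ISOcages during the treatment period. Vancomycin mice received 2.5 mg of the drug in 100 µl of PBS by intraperitoneal injection, 2 times daily for 3 days with 1 final dose on day 4, and PBS mice received the same volume of vehicle on the same schedule. The remaining libraries came from GF mice at ZT5, ZT11 and ZT23 (24 libraries) and from mice with a specific pathogen free (SPF) microbiota (32 libraries, 8 of them at ZT17). The strain, genotype, chow and ISOcages above describe the GF groups, and those of the SPF mice are not given here. The SPF mice were also 8 to 12 weeks old under 12 h of light and 12 h of dark. They received 2.5 mg of vancomycin or PBS in the same volume and on the same schedule. Whether each library is a separate animal is not stated in the labels, so p-values measure only the spread between these libraries.

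Vancomycin kills Gram-positive bacteria by binding the building blocks of their cell wall. Germ-free mice carry no bacteria for it to act on. They thus serve as a control for drug effects that do not pass through the microbiota. The PBS mice were injected on the same schedule, so vancomycin minus PBS does not measure effects of the injections. The colonic mucosa holds absorptive colonocytes, mucus-secreting goblet cells and, in patches, lymphoid follicles. The place along the gut is recorded by Hox genes, with Hoxb13 and Hoxd13 expressed toward the distal end and Hoxb6 to Hoxb8 more proximally.

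Hox genes that mark position along the gut differed widely between the libraries, although all carry the label of whole colon. Hoxb13, a distal marker, measured 132, 6.13, 240 and 0.163 CPM (the estimated count over the TMM-scaled library total) in PBS replicates 1 to 4, and 304, 65.7, 205 and 214 CPM in vancomycin replicates 1 to 4. Hoxb8, a proximal marker, measured 0.315, 1.45, 0.0932 and 20.5 CPM in the PBS libraries and 0.389, 0.713, 0.170 and 0.235 CPM in the vancomycin libraries. PBS replicates 2 and 4 had the lowest distal Hox scores of the 8 libraries, and PBS replicate 4 the highest proximal score (3.98 as mean log2 CPM). PBS replicate 2 and vancomycin replicate 2 followed with proximal scores of 2.31 and 2.34, and vancomycin replicate 2 had the lowest distal score of its group (2.68, against 0.987 and 0.561 in PBS replicates 2 and 4).

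A position score was taken as the mean log2 CPM of 6 distal Hox genes minus that of the 8 proximal Hox genes that passed the count filter. It was 0.29, −1.32, 2.57 and −3.42 in PBS replicates 1 to 4 and 2.85, 0.35, 1.62 and 2.03 in vancomycin replicates 1 to 4. The means were −0.47 ± 2.53 and 1.71 ± 1.05 (SD, n = 4 each), a difference of 2.18 that an exact two-sided permutation test did not call (p = 0.171, where the smallest p of the design is 0.0286). With 1 library left out, the difference ran from 1.20 without PBS replicate 4 (exact permutation p = 0.343) to 3.20 without PBS replicate 3 (exact permutation p = 0.0286). The score spanned −5.44 to 3.49 in the other 24 GF libraries and 2.34 to 2.88 in the 8 SPF libraries of ZT17.

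Other traits also differed between libraries. The follicle score, the mean log2 CPM of 23 B cell and lymphoid follicle genes, was 0.15, −1.03, 4.36 and −0.87 in the PBS libraries and 5.37, 1.12, 1.79 and 0.83 in the vancomycin libraries, so PBS replicate 3 and vancomycin replicate 1 stood above the rest. The Y-linked genes Ddx3y and Eif2s3y were below 0.4 CPM in PBS replicate 4 and vancomycin replicates 1 and 2 and above 60 CPM in the other 5 libraries. The smooth muscle score, the mean log2 CPM of 22 genes, was 9.23, 8.54, 8.58 and 9.01 in PBS replicates 1 to 4. It was 8.18, 9.75, 8.44 and 7.90 in vancomycin replicates 1 to 4. Library totals ran from 10513966 to 13232615 estimated counts, and Pearson's r of log2 CPM was 0.925 to 0.960 between PBS libraries, 0.904 to 0.951 between vancomycin libraries and 0.899 to 0.958 across the treatments. Position, follicle content and Y-linked expression are given beside the results they move with. The part of these traits and of smooth muscle content in the results was not tested beyond the values shown.

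**Figure D1:**
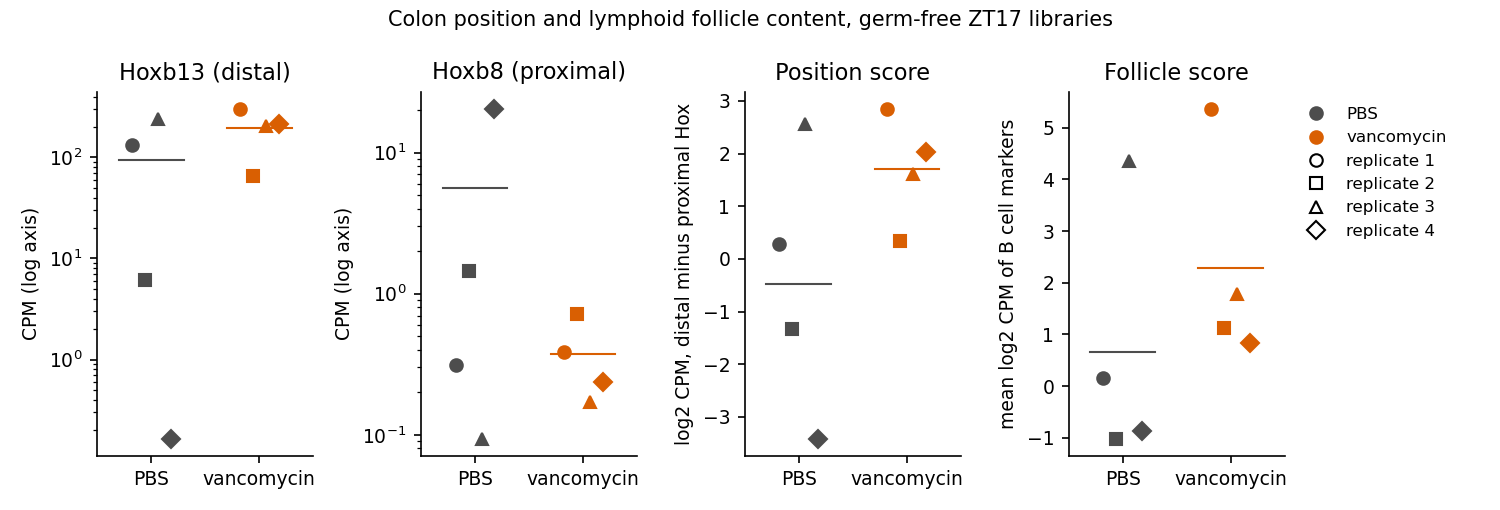
Hoxb13 and Hoxb8 in CPM on log axes, the position score (distal minus proximal Hox genes, log2 CPM) and the follicle score (mean log2 CPM) in each of the 4 PBS (grey) and 4 vancomycin (orange) libraries. Marker shapes are replicate numbers, which the main test did not use as pairs, and lines are group means. PBS replicates 2 and 4 sit lowest in Hoxb13 and position score, and PBS replicate 3 and vancomycin replicate 1 sit highest in follicle score.

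No gene passed the test between vancomycin and PBS in the GF colon at ZT17. edgeR's quasi-likelihood test with Benjamini-Hochberg adjustment called 0 of 16951 genes (0%) at an adjusted p of 0.05. At an unadjusted p of 0.05, 757 genes (4.47%) were reached, 386 of them higher (2.28%) and 371 lower (2.19%) after vancomycin. The median log2 fold change of all genes was 0.02, and 53.7% were positive. The 4 vancomycin libraries lay above all 4 PBS libraries for 189 genes (1.11%) and below them for 153 (0.903%). In counts simulated from the GF libraries' means and spread, the same test recovered 63% of 100 genes changed 2-fold (1 log2 unit). It recovered 84% of 100 genes changed by 2 log2 units, with 7 false calls among 16776 genes. The changed genes were drawn only from those above a minimum mean CPM at ZT17, and each gene was simulated independently. Differences that libraries share across genes, such as position or follicle content, were not simulated, so these shares may not hold in the data. DESeq2's Wald test called 13 genes, 9 higher and 4 lower. Of these, 11 were predicted genes or pseudogenes and the others were H2-Q5 and Csf2ra. The smallest adjusted p in edgeR belonged to the predicted gene Gm47154 (0.0534), picked out after its values were seen, with 0.787, 0.565, 1.86 and 1.06 CPM in the PBS libraries and 0 in all vancomycin libraries.

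The genes with the smallest unadjusted p among those with a symbol and at least 50 estimated counts are given as values, since none was called; the adjusted p of each was 0.994. Csf2ra, the alpha chain of the GM-CSF receptor on myeloid cells, measured 14.6, 15.2, 20.5 and 11.4 CPM after PBS and 35.2, 24.7, 35.8 and 28.3 CPM after vancomycin. The group means were 15.4 ± 3.77 and 31 ± 5.39 CPM (SD, n = 4), the log2 fold change was 1.01 (SE 0.23), and every vancomycin library lay above every PBS library. Without PBS replicates 2 and 4 its log2 fold change was 0.84. Pprc1, a coactivator of the PGC-1 family linked to mitochondrial biogenesis, measured 13.7, 15.4, 19.2 and 11.3 CPM after PBS and 30.7, 26.8, 25.5 and 26.5 CPM after vancomycin (log2 fold change 0.88, SE 0.22). Its groups did not overlap either. Proser1 differed by less but with little spread, at 24.2, 23.7, 24.5 and 22.3 CPM after PBS and 31.1, 31.4, 32.6 and 30.1 CPM after vancomycin (log2 fold change 0.40, SE 0.11).

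Some of the higher genes owed their mean to a few libraries. H2-Q5, an MHC class I gene of the Qa region, measured 3.45 to 4.57 CPM in the PBS libraries and 85.3, 3.41, 30.9 and 19.1 CPM in vancomycin replicates 1 to 4, so replicate 2 was at the PBS level. H2-Q genes are close copies of each other, and the split of reads between them is uncertain. Lin9, a subunit of the DREAM complex that controls cell cycle genes, ran from 4.25 to 5.40 CPM after PBS and from 5.70 to 12.0 CPM after vancomycin. Ppp1r3f, a glycogen-targeting subunit of protein phosphatase 1, ran from 1.10 to 2.42 CPM and from 2.41 to 6.97 CPM. Tex13b ran from 1.37 to 3.07 CPM after PBS and from 2.98 to 5.75 CPM after vancomycin.

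Of the 8 lower genes, which were picked for their small p, 5 had no overlap between the groups, against 0.903% of all genes; the choice by p makes such separation likely, and nothing is read from the count. Psmd4, a ubiquitin receptor of the proteasome, measured 103, 92.3, 101 and 95.5 CPM after PBS and 82.5, 80.9, 74.8 and 71.4 CPM after vancomycin (log2 fold change −0.34, SE 0.10). Svip, an inhibitor of endoplasmic reticulum-associated degradation, measured 27.7, 27.8, 25.2 and 30.1 CPM after PBS and 14.7, 20.4, 20.2 and 21.1 CPM after vancomycin (log2 fold change −0.53). Mipol1 measured 6.61, 8.71, 10.5 and 11.7 CPM after PBS and 2.88, 2.14, 1.70 and 2.51 CPM after vancomycin (log2 fold change −2.02, SE 0.61). These 3 genes were separated between the groups with no library standing far from its own group, apart from vancomycin replicate 1 in Svip.

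Cyp2j6, a cytochrome P450 of arachidonic acid and drug metabolism, measured 31.6, 49.5, 27.4 and 54.2 CPM after PBS and 21 to 27.2 CPM after vancomycin; PBS replicates 2 and 4 were the high ones. H60c, a ligand of the NKG2D receptor, was at 21.5 CPM in PBS replicate 4 and at 0 to 1.02 CPM in the other 7 libraries. Nqo1, a quinone reductase induced by NRF2, measured 23.4, 27.2, 16.7 and 29.5 CPM after PBS and 11.1 to 17.7 CPM after vancomycin. Cd177, a glycoprotein known from neutrophils, ran from 31.5 to 82.8 CPM and from 12.0 to 54.6 CPM. Xpnpep1, a proline aminopeptidase, ran from 71.0 to 122 CPM and from 39.1 to 71.8 CPM.

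**Figure D2:**
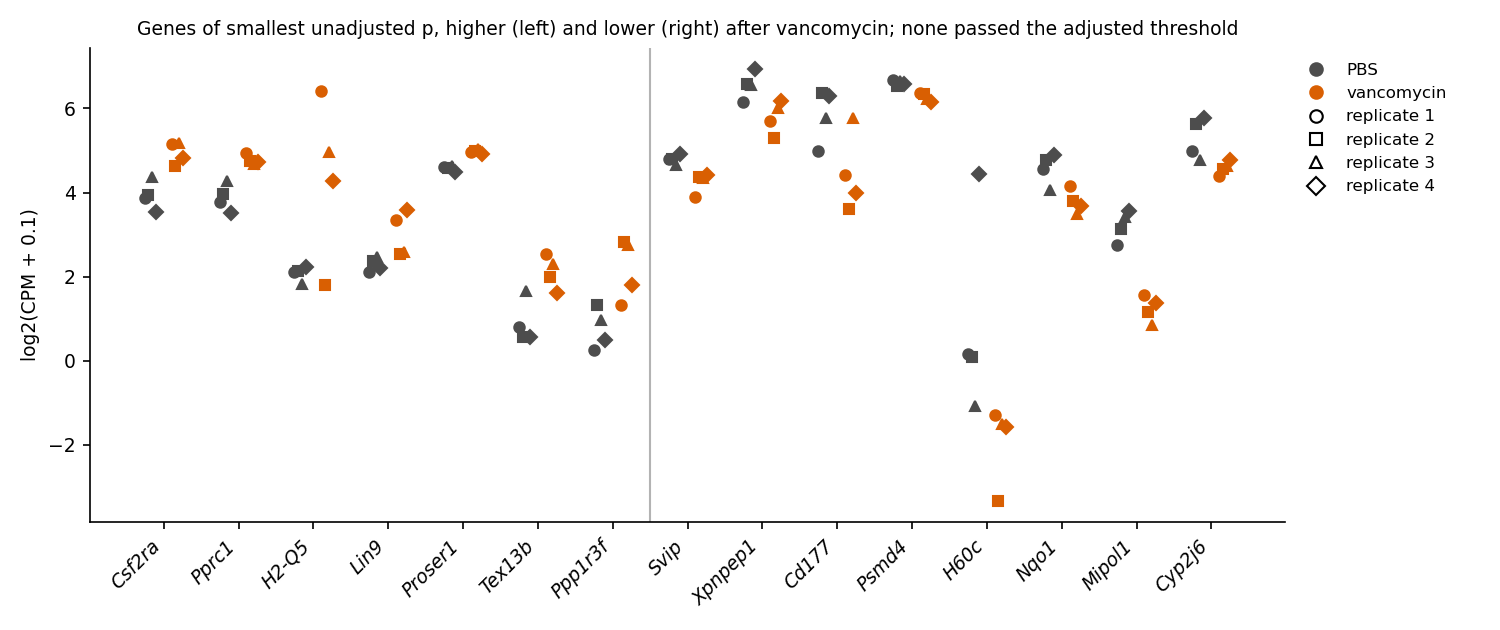
Values of log2(CPM + 0.1) in each library for 7 genes of small unadjusted p that were higher (left) and 8 that were lower (right) after vancomycin, with PBS in grey and vancomycin in orange. Csf2ra, Pprc1, Lin9, Proser1, Svip, Psmd4, H60c, Mipol1 and Cyp2j6 show no overlap between the groups, while H2-Q5 in vancomycin replicate 2 lies with the PBS libraries.

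Car1, Muc2 and Slc6a14 were highest in PBS replicates 2 and 4. Car1, a carbonic anhydrase most abundant in the proximal colon, measured 604, 4315, 617 and 4295 CPM in PBS replicates 1 to 4 and 428 to 545 CPM in the vancomycin libraries. Its log2 fold change of −2.34 (SE 0.72) was −0.31 without PBS replicates 2 and 4. Muc2, the main secreted mucin, measured 4351, 10766, 3634 and 13381 CPM after PBS and 2667, 1931, 4846 and 5219 CPM after vancomycin, and its log2 fold change of −1.13 was −0.11 without those libraries. Slc6a14, an amino acid transporter, measured 404, 743, 319 and 798 CPM after PBS and 262 to 423 CPM after vancomycin. Car1 and Slc6a14 belong to the colonocyte transport and absorption list, which had 19 of 38 tested genes positive and a median of 0.06. In that list 2 genes were lower at an unadjusted p of 0.05 (against 2.19% of all genes). Over the goblet cell and mucus list, 1 of 26 tested genes was lower at an unadjusted p of 0.05 (against 2.19% of all genes). The median log2 fold change of the goblet list was −0.03 (−0.20 without vancomycin replicate 3 and 0.18 without vancomycin replicate 2). As a list the goblet cell and mucus genes were not high in PBS replicates 2 and 4. Their score was 7.20 to 7.56 in the PBS libraries and 7.23, 6.40, 7.56 and 7.59 in vancomycin replicates 1 to 4.

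Small intestinal genes, and the antimicrobial genes Reg3b and Reg3g, were highest in PBS replicate 4. Reg3b, an antimicrobial lectin of the gut epithelium, was at 106 CPM in that library, 5.16 CPM in PBS replicate 2 and 0 to 0.548 CPM in the other 6. Reg3g, its close relative, was at 31 CPM in PBS replicate 4, 5.00 CPM in replicate 2, 1.18 and 1.02 CPM in the other PBS libraries and 0.233 to 1.02 CPM after vancomycin. The epithelial defence list had 23 of 33 tested genes with a positive log2 fold change and a median of 0.43. In that list 2 genes were lower at an unadjusted p of 0.05 (against 2.19% of all genes). Its median was 0.26 without PBS replicates 2 and 4 and −0.02 without vancomycin replicate 1. With the position score as a covariate it was −0.12, with 14 of 33 genes positive. Cubn, the vitamin B12 receptor of the ileum, was at 9.54 CPM in PBS replicate 4 and at most 1.13 CPM elsewhere. The small intestine list had 15 of 18 tested genes with a negative log2 fold change and a median of −0.94, which was −0.43 without PBS replicate 4 and −0.14 without PBS replicates 2 and 4.

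Cholesterol synthesis genes were mostly lower in value after vancomycin. This pathway builds sterols from acetyl-CoA under the control of the transcription factor SREBP2. None of its 25 tested genes was called; 24 had a negative log2 fold change, 12 reached an unadjusted p of 0.05 in edgeR, all lower (against 2.19% of all genes), and the median was −0.49 against 0.02 for all genes. Hmgcs1, which makes HMG-CoA, measured 352, 1081, 287 and 499 CPM after PBS and 295, 206, 350 and 322 CPM after vancomycin. Cyp51, the lanosterol demethylase, measured 132, 369, 119 and 257 CPM after PBS and 114, 81.3, 135 and 154 CPM after vancomycin. Nsdhl, a sterol dehydrogenase, measured 38.5, 78.2, 38.5 and 55.2 CPM after PBS and 24.5 to 46.2 CPM after vancomycin. Srebf2, which encodes SREBP2, measured 280, 365, 249 and 309 CPM after PBS and 206 to 269 CPM after vancomycin. In each of these 4 genes PBS replicates 2 and 4, the libraries of lowest position score, were the 2 highest of the 8, and PBS replicates 1 and 3 lay in or near the vancomycin range. Without the 2 high libraries the median of the list was 0.01, with 13 genes positive, 12 negative and none at an unadjusted p of 0.05. Without PBS replicate 2 alone it was −0.20, again with none at that p. With the position score as a covariate over all 32 GF libraries, the median was −0.45 and 8 genes reached an unadjusted p of 0.05, all lower.

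Other metabolic lists had the same libraries on top. Over all genes, 2.19% were lower at an unadjusted p of 0.05 and 53.7% had a positive log2 fold change. Fatty acid oxidation and ketogenesis had 29 of 34 genes with a negative log2 fold change, 5 of them at an unadjusted p of 0.05, and a median of −0.28, which was −0.03 without PBS replicates 2 and 4; no gene reached that p without PBS replicate 2 alone. Etfdh, which passes electrons from fatty acid oxidation to ubiquinone, measured 55.8, 102, 73.2 and 99.7 CPM after PBS and 44.6 to 70.4 CPM after vancomycin. Hadha, the alpha subunit of the mitochondrial trifunctional protein, measured 208, 302, 233 and 259 CPM after PBS and 175 to 230 CPM after vancomycin. Xenobiotic metabolism had 6 of 46 genes lower at an unadjusted p of 0.05 and a median of −0.18, which was 0.01 without those libraries, −0.07 without PBS replicate 2 alone and −0.41 without vancomycin replicate 4. Gsta1, a glutathione transferase, measured 12.5, 37.0, 6.80 and 18.6 CPM after PBS and 5.67 to 9.16 CPM after vancomycin. Ces1g, a carboxylesterase, measured 5.04, 7.91, 3.07 and 24.5 CPM and 1.48 to 3.01 CPM. Ugt1a6b, a glucuronosyltransferase, measured 20.5, 44.0, 23.2 and 53.2 CPM and 9.56 to 24 CPM; the UGT1A genes share exons, and reads between them may be split. The oxidative stress list, which holds Nqo1, had 4 of 24 genes lower at an unadjusted p of 0.05 and a median of −0.15, which was −0.07 without PBS replicates 2 and 4.

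Adipose tissue genes, 18 of which were tested, all had a negative log2 fold change, and 1 was lower at an unadjusted p of 0.05 (against 2.19% of all genes). The median of these adipose genes was −0.69. Their summed level ran from 545 to 2042 CPM after PBS and from 539 to 1407 CPM after vancomycin. The median was 0.14 without PBS replicates 2 and 4, −0.23 without PBS replicate 2 alone and −1.20 without vancomycin replicate 2. In bulk tissue, fewer cells of a type and less RNA per cell cannot be told apart.

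Interferon-stimulated genes were mostly higher in value after vancomycin. These genes, which include guanylate-binding proteins and immunity-related GTPases, are switched on by interferon signalling. None of 50 tested genes was called; 48 had a positive log2 fold change, 8 reached an unadjusted p of 0.05, all higher (against 2.28% of all genes), and the median was 0.57. Gbp6 measured 1.10, 0.403, 1.40 and 1.55 CPM after PBS and 4.82, 4.44, 2.90 and 2.90 CPM after vancomycin, without overlap. Gbp7 measured 25.5, 18.1, 35 and 18 CPM after PBS and 87.6, 40.0, 35.4 and 17.5 CPM after vancomycin. Igtp measured 11.4, 9.68, 19 and 12.9 CPM after PBS and 55.3, 23.3, 27.3 and 8.30 CPM after vancomycin. Ifi27 measured 81.3, 65.3, 87.1 and 68.5 CPM after PBS and 118, 93.2, 121 and 67.3 CPM after vancomycin.

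The vancomycin libraries were spread widely in this list. The mean log2 CPM of the list was 4.01, 3.95, 4.56 and 4.36 in the PBS libraries and 5.47, 4.80, 4.96 and 3.60 in vancomycin replicates 1 to 4. Vancomycin replicates 1 to 3 lay above all PBS libraries, and replicate 4 was the lowest of the 8. The median log2 fold change was 0.58 without PBS replicates 2 and 4, 0.51 with position as a covariate and 0.41 without the 2 libraries of highest follicle score. The 8 genes at an unadjusted p of 0.05 became 0, 2 and 3 in those settings, 1 without PBS replicate 2 alone and 23 without vancomycin replicate 4. The median was lowest without vancomycin replicate 1, at 0.36, and highest without vancomycin replicate 4, at 0.85.

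MHC class I and antigen processing genes, which load and display peptides on all nucleated cells, had positive values in 16 of 16 tested genes (against 53.7% of all genes). Of these, 2 were higher at an unadjusted p of 0.05 (against 2.28% of all genes), and the list's median was 0.39. The median was 0.19 without PBS replicates 2 and 4, where no gene reached that p, and 0.08 without vancomycin replicate 1. H2-T23 measured 49.9, 37.0, 44.7 and 38.5 CPM after PBS and 62.1, 43.0, 51.8 and 107 CPM after vancomycin. Psmb9, an immunoproteasome subunit, measured 14.4, 14.7, 28.3 and 18.7 CPM after PBS and 64.7, 19.6, 31.1 and 18.8 CPM after vancomycin. Vancomycin replicate 1, rich in follicle genes, held the highest Psmb9, and vancomycin replicate 4 the highest H2-T23.

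Lymphocyte genes were highest in the 2 follicle-rich libraries, 1 in each group. All 23 tested B cell and follicle genes had a positive log2 fold change with a median of 0.93, and none reached an unadjusted p of 0.05. Cd22, a B cell inhibitory receptor, measured 1.26, 0.403, 24.3 and 0.734 CPM after PBS and 73.5, 3.56, 4.94 and 3.29 CPM after vancomycin. Spib, a transcription factor of B cells and of the epithelium over follicles, measured 6.45, 2.02, 29.7 and 3.02 CPM after PBS and 63.6, 6.50, 11.7 and 9.48 CPM after vancomycin. The list's median ran from −1.27 without vancomycin replicate 1 to 4.44 without PBS replicate 3. It was 0.10 without PBS replicates 2 and 4, and 1.76 with 22 of 23 genes positive without the 2 follicle-rich libraries.

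T and NK cell genes had a median of 0.78 over 30 tested genes, 27 of them positive (against 53.7% of all genes). Of these, 1 was higher at an unadjusted p of 0.05 (against 2.28% of all genes). Cd4 measured 0.551, 0.323, 8.38 and 0.815 CPM after PBS and 42.4, 0.396, 1.28 and 1.57 CPM after vancomycin. Ccl5, a chemokine of T and NK cells and the 1 gene of the list at an unadjusted p of 0.05, measured 0.393, 0.161, 1.40 and 0.652 CPM after PBS and 7.23, 1.03, 2.47 and 1.41 CPM after vancomycin. All 10 MHC class II genes were positive, with a median of 0.98 and none at an unadjusted p of 0.05. H2-Ab1, a class II beta chain, measured 20.8, 15.7, 158 and 19.7 CPM after PBS and 297, 40.3, 62.6 and 25.1 CPM after vancomycin. H2-DMa, which helps load class II, measured 3.15, 4.2, 14.3 and 2.61 CPM after PBS and 33.3, 8.32, 6.99 and 4.54 CPM after vancomycin. Without PBS replicates 2 and 4 the medians were 0.04 for T and NK cells and 0.20 for class II, and without the 2 follicle-rich libraries 0.71 and 1.07. Leaving out vancomycin replicate 1 turned both, to −0.61 each, and leaving out PBS replicate 3 gave 1.76 and 2.71. With the follicle score as a covariate the class II median was −0.01, with 4 of 10 genes positive.

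Macrophage and dendritic cell genes had a median of 0.41 over 29 tested genes, 26 of them positive (against 53.7% of all genes). Of these, 2 were higher at an unadjusted p of 0.05 (against 2.28% of all genes). The median was 0.025 without vancomycin replicate 1, 0.65 without PBS replicate 3, 0.15 without PBS replicates 2 and 4 and 0.08 with the follicle score as a covariate. In both genes 1 or 2 vancomycin libraries stood above the rest. Itgam, the CD11b integrin chain, was at 26.6 CPM in vancomycin replicate 3 and at 1.55 to 3.42 CPM in the other 7. Fcer1g, an adaptor of Fc receptors, was at 5.29 and 4.52 CPM in vancomycin replicates 1 and 3 and at 0.944 to 2.52 CPM elsewhere. Cytokines and chemokines had a median of 0.37 over 31 tested genes. Of these, Ccl2, Ccl5 and Ccl7 were higher at an unadjusted p of 0.05 (3 genes, against 2.28% of all genes). That median was −0.046 without vancomycin replicate 1, 0.70 without vancomycin replicate 4, 0.22 without PBS replicates 2 and 4 and 0.04 with the follicle covariate. The monocyte chemokine genes Ccl2 and Ccl7 were highest in vancomycin replicate 3, at 9.55 and 7.93 CPM, against 0.236 to 2.61 CPM and 0.0815 to 1.90 CPM in the other libraries.

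**Figure D3:**
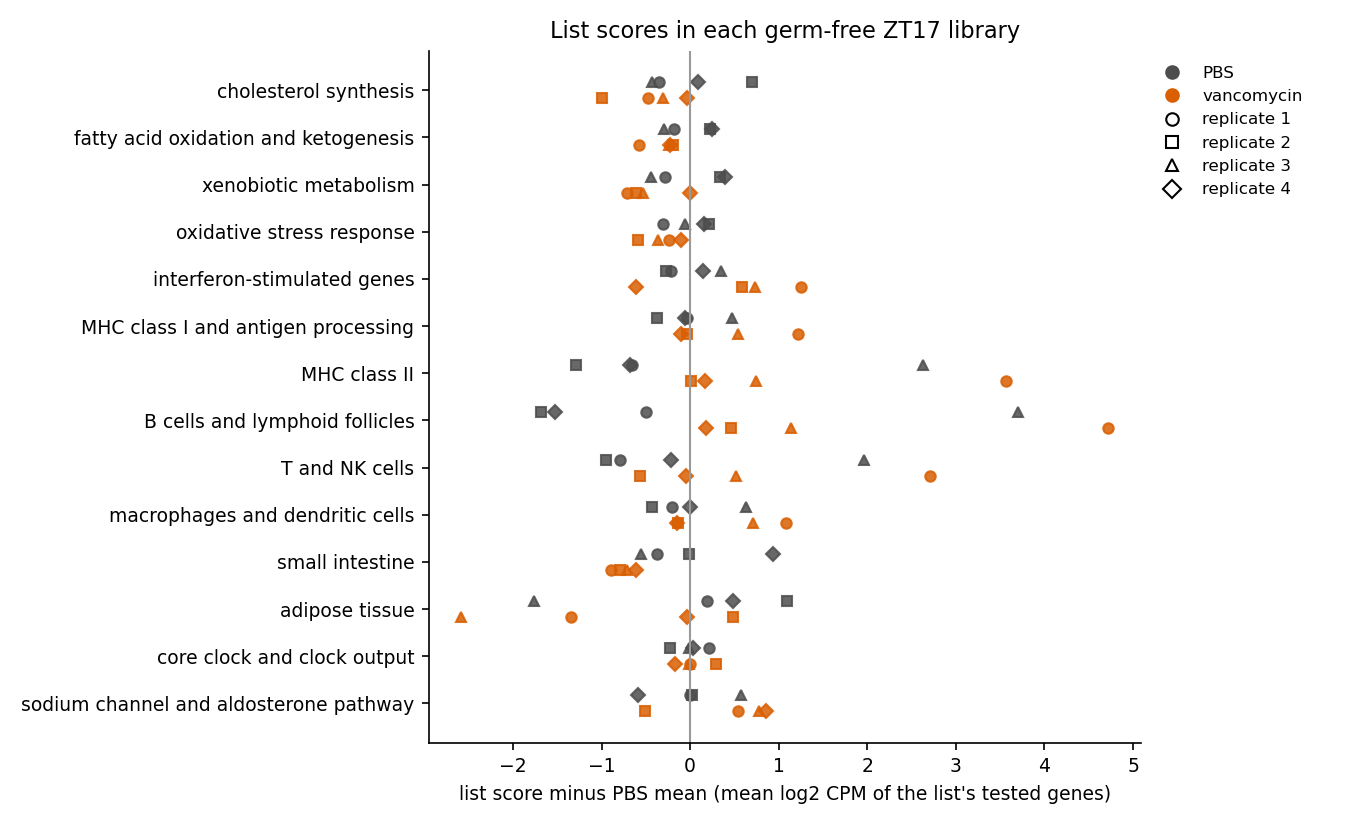
Score of each gene list (mean log2 CPM of its tested genes) in each library, minus the mean of the 4 PBS libraries, with PBS in grey, vancomycin in orange and marker shapes for replicate numbers. PBS replicate 2 is highest in cholesterol synthesis, PBS replicate 3 and vancomycin replicate 1 are highest in lymphocyte lists, and vancomycin replicate 4 is lowest in interferon-stimulated genes.

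**Figure D4:**
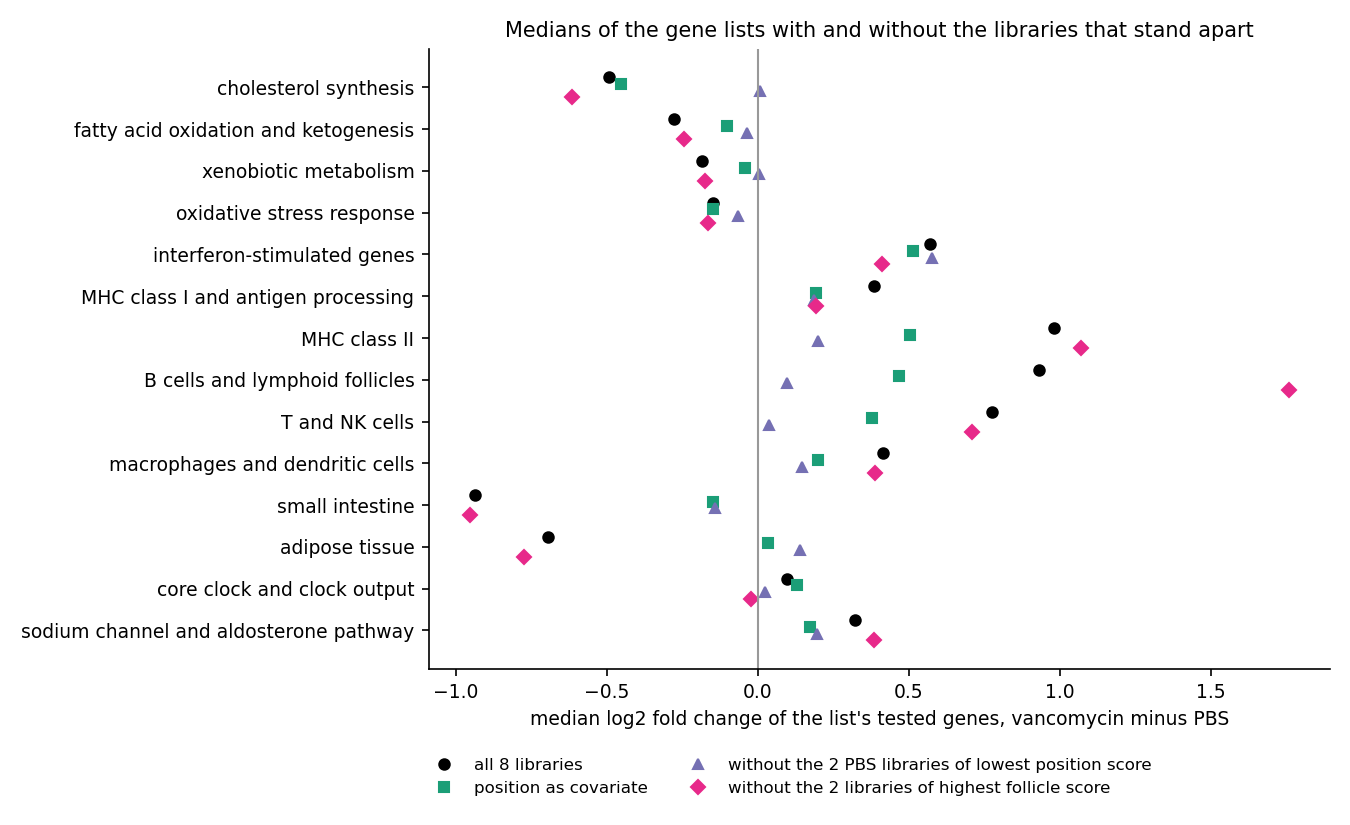
Median log2 fold change (vancomycin minus PBS) of each list's tested genes with all 8 ZT17 libraries (black circles), with the position score as a covariate (green squares), without the 2 PBS libraries of lowest position score (purple triangles) and without the 2 libraries of highest follicle score (pink diamonds). The cholesterol synthesis median goes from −0.49 to 0.01 without the 2 PBS libraries of lowest position score, while that of interferon-stimulated genes goes from 0.57 to 0.58.

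Clock genes, which drive daily rhythms in the gut, had a median of 0.10 over 19 tested genes. Of these, 2 were higher at an unadjusted p of 0.05 (against 2.28% of all genes). The list's median was −0.07 in the limma-voom fit and −0.02 with a Y-linked covariate. Nfil3, a repressor in clock output and in innate lymphoid cell development, measured 2.12, 2.82, 1.77 and 2.93 CPM after PBS and 3.5, 6.34, 4.43 and 4.78 CPM after vancomycin, without overlap. Its log2 fold change was 0.98 (SE 0.29, adjusted p 0.994 in edgeR) and 1.27 with position as a covariate, where the adjusted p was 0.0466; over all settings run the adjusted p ran from 0.0451 to 1. With that covariate 2 genes were called, Nfil3 and Gm47154. Arntl, the core activator BMAL1, measured 16.2, 14.4, 17.7 and 13.2 CPM after PBS and 17.3, 6.10, 20.4 and 34.5 CPM after vancomycin. Per3, a clock repressor gene, measured 47.9 to 65.9 CPM after PBS and 56.9 to 90.3 CPM after vancomycin. Arntl was lowest in vancomycin replicate 2 and highest in vancomycin replicate 4, so the spread within the treated group was wider than within PBS.

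The sodium channel and aldosterone list, which covers salt uptake in the distal colon, had 10 of 13 genes positive (against 53.7% of all genes). Of these, 2 were higher at an unadjusted p of 0.05 (against 2.28% of all genes). The list's median was 0.32. Without PBS replicates 2 and 4 it was 0.20, with no gene at that p. Sgk1, a kinase induced by aldosterone and glucocorticoids, measured 248, 522, 456 and 194 CPM after PBS and 608, 333, 706 and 868 CPM after vancomycin. Nedd4l, the ubiquitin ligase that removes the sodium channel from the membrane, measured 149, 118, 115 and 144 CPM after PBS and 151, 215, 138 and 154 CPM after vancomycin. Hsd11b2, which protects the mineralocorticoid receptor from glucocorticoids, measured 234 to 407 CPM after PBS and 145 to 656 CPM after vancomycin. The groups overlapped in all 3 genes.

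Stress and neural genes gave scattered values. Herpud1, a component of endoplasmic reticulum quality control, measured 110, 117, 161 and 85.3 CPM after PBS and 180, 140, 179 and 176 CPM after vancomycin. Fos, an immediate early gene, measured 116, 178, 59.6 and 106 CPM after PBS and 49.6 to 72.7 CPM after vancomycin. Nr4a3, another immediate early gene, was at 16.7 CPM in vancomycin replicate 2 and at 1.79 to 5.21 CPM elsewhere. Gfap, a marker of enteric glia, was at 49.8 and 36.7 CPM in vancomycin replicates 2 and 3 and at 7.15 to 10.5 CPM in the other 6 libraries. The list medians were −0.01 for endoplasmic reticulum stress (13 of 29 genes positive) and 0.10 for immediate early genes (17 of 28). For neurons, glia and pacemaker cells the median was 0.07 (18 of 25). Each list held 1 gene higher at an unadjusted p of 0.05 (against 2.28% of all genes), and the immediate early list also 1 lower (against 2.19%). Proliferation genes had a median of −0.03 over 34 tested genes, and smooth muscle genes −0.06 over 22. No gene of either list was at an unadjusted p of 0.05. The proliferation median was 0.28 without PBS replicates 2 and 4, with 28 genes positive and 6 negative. It ran from −0.36 without vancomycin replicate 4, where 7 genes were at that p, to 0.11 without PBS replicate 4. The smooth muscle median ran from −0.62 without vancomycin replicate 2 to 0.12 without vancomycin replicate 4.

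Whether the ZT17 difference was particular to that time was tested by setting it against the mean of the vancomycin minus PBS differences at ZT5, ZT11 and ZT23, each with its own PBS group. edgeR called 0 of 16951 genes (0%), with 1134 (6.69%) at an unadjusted p of 0.05; DESeq2 called 16. Pprc1 had log2 fold changes of 0.22, −0.35 and −0.51 at ZT5, ZT11 and ZT23, and its ZT17 value exceeded their mean by 1.09 (edgeR adjusted p 0.637). Csf2ra and Aaas, a nuclear pore gene, had excesses of 1.07 and 0.87, and H2-Q5 had one of 3.85. Ntrk3, a neurotrophin receptor, had the largest of the 5 excesses given, 4.00, and was at 53.7 and 34.4 CPM in vancomycin replicates 3 and 4 against 3.86 to 11.3 CPM in the other 6 libraries.

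In the other direction the largest of the values given belonged to Osr2 and Reg3b, each highest in PBS replicate 4. Osr2, a transcription factor gene, was at 63.2 CPM in PBS replicate 4 and at 0.155 to 1.28 CPM elsewhere, with a difference of −8.67 between ZT17 and the other times that was −3.59 without PBS replicates 2 and 4. Reg3b had a difference of −11.66, which was −3.97 without those libraries. The log2 fold change of Reg3b at ZT17 itself was 1.11 without them. With the position score as a covariate the differences from the other times were −0.49 for Reg3b and −1.66 for Osr2. Psmd4 and Cyp2j6 differed by −0.44 and −1.01. Mt2, a metallothionein, measured 97.4 to 170 CPM after PBS and 48.4 to 126 CPM after vancomycin and differed by −1.62 from the other times, at which its log2 fold changes were 0.73, 1.10 and 1.28. Pdcl, a phosducin-like protein gene, differed by −0.59.

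The design also asks whether vancomycin acted differently in the GF and the SPF colon at ZT17. The GF difference was set against the SPF difference in 1 fit of all 64 libraries, using the 16604 genes tested in both, and edgeR called 10 genes (0.0602%; 6.53% at an unadjusted p of 0.05), 9 with a higher value in GF (0.0542%) and 1 with a lower (0.00602%). In the same fit the SPF mice alone had 44 genes called (0.265%). Each of the 9 fell in the SPF mice after vancomycin (edgeR adjusted p at most 0.002 in the same fit), and none of the 10 was called in the GF mice.

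Mptx2, a pentraxin of the gut epithelium, showed the widest difference among the genes with an assigned symbol that the rule named. It measured 16.2, 19.5, 18.6 and 22.3 CPM in GF PBS libraries and 98.1, 9.74, 22.8 and 23.2 CPM in GF vancomycin libraries. In SPF mice it measured 974, 90.1, 78.6 and 1.01 CPM after PBS and 0 to 0.585 CPM after vancomycin. The GF minus SPF difference of the log2 fold changes was 11.34 (SE 2.06, edgeR adjusted p 0.00504; from 7.11e-09 to 0.177 over the settings run). Itln1, an intelectin that binds microbial sugars, measured 412, 994, 523 and 1226 CPM in GF PBS libraries and 325, 197, 619 and 479 CPM in GF vancomycin libraries. In SPF mice it measured 2574, 396, 152 and 4.60 CPM after PBS and 2.08 to 2.35 CPM after vancomycin (difference 7.51, edgeR adjusted p 0.0302; up to 0.553 over the settings run, with the call lost in 8 of 16). Both genes varied by far more among SPF PBS libraries than among GF libraries.

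Actr3-ps, a pseudogene of the actin-related gene Actr3, measured 57.7 to 82.4 CPM and 43.0 to 65.9 CPM in GF PBS and vancomycin libraries, and 49.0 to 59.3 CPM and 0 to 0.585 CPM in the SPF groups (difference 7.34, SE 0.96, edgeR adjusted p 8.73e-06). Reads of a pseudogene and its parent may be split unevenly. Ldlrad3, a receptor-like membrane protein gene, measured 11.9 to 16.3 CPM and 14.4 to 19.1 CPM in GF mice and 45.6 to 58.9 CPM and 16.2 to 23.8 CPM in SPF mice (difference 1.76, SE 0.30, edgeR adjusted p 0.00292). It passed the test in all 16 alternative settings of this contrast, as did Actr3-ps. Vmn1r43, a vomeronasal receptor gene, and Morn2 differed by 2.97 and 1.67 (edgeR adjusted p 0.0307 and 0.0357). Their calls were lost in 9 and 11 of the 16 settings, with edgeR adjusted p up to 0.427 and 0.611.

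Pgd, an enzyme of the pentose phosphate pathway, was the 1 gene called lower. It measured 130, 189, 127 and 189 CPM in GF PBS libraries and 115, 94.8, 128 and 125 CPM in GF vancomycin libraries, against 117 to 163 CPM and 194 to 301 CPM in the SPF groups. The difference was −1.27 (SE 0.23, edgeR adjusted p 0.00496) and rested in part on the GF PBS libraries 2 and 4: without them it was −0.98 and the adjusted p was 0.259. Without those 2 libraries 2 genes were called in all.

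**Figure D5:**
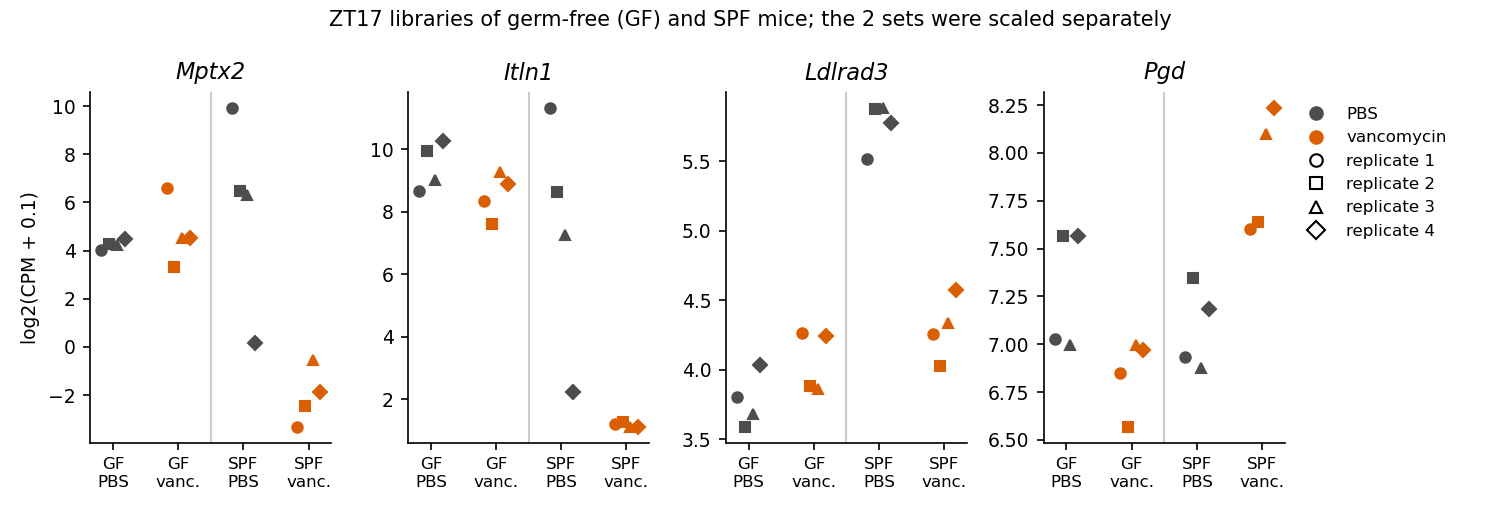
Values of log2(CPM + 0.1) for Mptx2, Itln1, Ldlrad3 and Pgd in the 4 GF and 4 SPF libraries of each treatment at ZT17, with PBS in grey and vancomycin in orange; the GF and SPF libraries were scaled separately. Mptx2, Itln1 and Ldlrad3 are lower after vancomycin in SPF libraries and overlap between treatments in GF libraries.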

How the data were processed

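RNA was poly(A)-selected from flash-frozen colon, per the labels' protocols, and 1000 ng of RNA per library was sequenced as single-end reads of 75 cycles on a NextSeq 550. For the estimated counts that the authors deposited per gene, Salmon, cutadapt 3.5, Trim Galore 0.6.2 and the build GRCm39 are listed, without their roles, per the submitters' processing notes. Settings, annotation and strand use are not given in the sources consulted. The deposited values, in a GF and an SPF table, are fractional and sum to different totals per library; they were taken as estimated counts not scaled by depth and rounded before testing.

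edgeR 4.0.16 (TMM scaling, quasi-likelihood test, limma 3.58.1, R 4.3.3) was fitted to 32 GF libraries in 8 group means, for genes with at least 10 rounded counts in 4 libraries, with Benjamini-Hochberg adjustment over all genes at 0.05. CPM use TMM; scores use log2 CPM with a prior count of 1. The SPF contrast used all 64 libraries in 16 group means. Named genes were, where fewer than 5 genes passed in a direction, the 8 of smallest p with at least 50 mean counts in 1 group and no predicted, immunoglobulin or T cell receptor segment symbol; up to 4 per list; up to 6 per direction in the 2 contrasts of effects; and Hox and Y-linked genes. A few genes that this rule picks are not reported here. Members and lists were chosen with earlier results of these data known. The alternatives were DESeq2 1.42.0, other scaling, filters and limma fits, covariates, a replicate block and leaving out libraries. Leaving out the 2 PBS libraries of lowest position score, the 2 of highest follicle score, and position with Y-linked covariates were added after seeing the data. The test was tried on simulated data first.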

Additional observations from a re-analysis of the deposited data

Results flagged for a closer look

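In groups of 4 libraries, 13 of 200 groups checked held a library whose gap to its nearest neighbour was large for the group's range; chance flags about 1 in 20. PBS replicate 4 was low in Eif2s3y and Ddx3y (0.0815 CPM each) and in the Y-linked score (0.45), and high in Osr2 (63.2 CPM). PBS replicate 3 was high in H2-Ab1 (158 CPM) and in the MHC class II score (5.26), and had the lowest total (10513966 estimated counts). Vancomycin replicate 1 was high in Cd22 (73.5 CPM) and low in Svip (14.7 CPM) and in the fatty acid oxidation score (5.68). Vancomycin replicate 2 was low in H60c (0 CPM) and Herpud1 (140 CPM). Vancomycin replicate 4 was low in Cubn (0.235 CPM).

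The vancomycin minus PBS difference at ZT17 itself differed between GF and SPF mice for 10 genes in edgeR. The GF minus SPF values on the log2 scale were 7.34 for Actr3-ps, 1.76 for Ldlrad3, −1.27 for Pgd, 11.34 for Mptx2, 7.51 for Itln1, 2.97 for Vmn1r43 and 1.67 for Morn2. The other 3, named because they complete the count, were Galm (1.91), a galactose mutarotase, the predicted gene Gm9765 (10.88) and the gene ENSMUSG00000095742 (2.73), which has no symbol in the tables.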

How the results depend on the processing

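The count of 0 called genes held under RLE scaling, library totals, other filters, the 8 libraries alone, both limma fits, Y-linked and follicle covariates, the replicate block and each of 8 left-out libraries; DESeq2 called 13, the position covariate 2, the smooth muscle covariate 1, and position with Y-linked covariates 2. The difference from the other GF times went from 0 to 16 called genes with DESeq2. The GF minus SPF count of 10 was 46 with DESeq2, 2 with the replicate block, 2 without the 2 PBS libraries of lowest position score, 3 without the 2 of highest follicle score, and 5 to 9 with 1 library left out; the cause was not tested. The position score difference ran from 1.20 to 3.20 with 1 library left out. The deviations of same-numbered libraries from their group means correlated with r from −0.18 to 0.10. Differently numbered libraries were not compared, so these values cannot decide whether the numbers pair the groups. The main test did not use them as pairs.

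Some single values reversed. With the position covariate, Hoxb13 was −0.27, Hoxb6 0.10 and Hoxb8 0.35; with Y-linked and position covariates, Hoxb8 was 0.11, Eif2s3y 0.0061 and Ddx3y 0.25; with the Y-linked covariate, Eif2s3y was 0.057 and Ddx3y 0.28. Without the 2 PBS libraries of lowest position score, Hoxd13 was −0.20, Hoxb6 0.11, Hoxb8 0.85 and Reg3b 1.11. With 1 library left out, H2-Ab1 ran from −0.32 to 2.46, Cd22 from −0.75 to 4.68, Spib from −0.16 to 2.53, Cd4 from −1.20 to 4.28, Itgam from −0.16 to 1.94 and Arntl from −0.066 to 0.65. Library totals of 10513966 to 13232615 estimated counts limit the precision of the lowest genes.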
